A study of Mus musculus with 9 samples.

Results

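The genes examined here were Nos2, the inducible nitric oxide synthase, Arg1, the arginase that competes with it for arginine, Cybb, Cyba, Ncf1, Ncf4 and Rac2, which encode parts of the phagocyte NADPH oxidase, and Sod2, the mitochondrial superoxide dismutase. They were chosen by gene name, and each of the 8 names matched 1 row of a table of 48526 genes. All 8 were among the 14702 genes with enough counts to be tested. Poly(A) RNA of BV-2 cells, an immortalized line derived from murine microglia, was sequenced in 9 libraries, with 3 in each of 3 states. High-dose primed cells (HP) were first exposed to lipopolysaccharide (LPS, an endotoxin of the bacterial wall) at 100 ng/ml and were later restimulated with LPS at 100 ng/ml. Ultra-low-dose primed cells (ULP) were first exposed to 1 fg/ml and later restimulated with the same 100 ng/ml. Unprimed cells (UP) received LPS only once, at 100 ng/ml. All 3 states had therefore been exposed to 100 ng/ml LPS before harvest, and resting cells were not analysed here. These doses are those of the sample descriptions, which fit the titles used for grouping, while a separate dose field gives 100 ng/ml for the ULP and 1 fg/ml for the HP samples. That the 3 libraries of each state were separate cultures is stated in no source used here, and the p-values below therefore measure only how far these libraries differ, which can be technical. The hour at which the BV-2 RNA was harvested is not given there either.

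Phagocytes make reactive oxygen and nitrogen species as weapons and as signals. The phagocyte NADPH oxidase is an enzyme that passes electrons from NADPH across a membrane to oxygen and so forms superoxide. Its core is a membrane-bound pair, the catalytic gp91phox (Cybb) and its partner p22phox (Cyba), and it becomes active when cytosolic proteins, among them p47phox (Ncf1), p40phox (Ncf4) and the small GTPase Rac2, join the membrane core. Nitric oxide synthase converts arginine to nitric oxide and citrulline, whereas arginase converts arginine to ornithine and urea, and in macrophages of mice high Nos2 and high Arg1 are often taken as opposite states of activation. Superoxide dismutase turns superoxide into hydrogen peroxide.

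The libraries held 24189203 to 27802244 counts. The first principal component of all genes tested took 79.1% of the variance, and along it HP 4 and HP 5 (57.5 and 75.5) and ULP 5 and ULP 6 (44.0 and 52.2) lay apart from UP 4, UP 5 and UP 6 (−46.4, −50.3 and −73.0), with HP 6 (−20.4) and ULP 4 (−39.2) on the side of the UP libraries. On the second component (8.57%), UP 5 stood apart at −46.3, against −4.85 to 16.2 in the others. Fold changes that moved most without HP 6, ULP 4 or UP 5 are therefore given with and without these libraries. HP 6 and ULP 4 were picked as the primed libraries nearest to UP on the first component of these same data. Leaving them out favours larger differences from UP for genes that follow this component, so passes without them are no independent support. Of 12 marker genes of microglia and macrophages, 9 were tested, and their summed level was 841 to 1059 RPKM in HP, 923 to 1162 in ULP and 1103 to 1272 in UP libraries. The macrophage genes Cd68 and Spi1 were abundant, while the microglial transcription factor gene Sall1 was at 0 in every library and the microglial receptor genes Cx3cr1 and P2ry12 did not exceed 0.0573 RPKM in any library, so that the label of a microglial line was met for macrophage markers but not for these 3 markers of resting microglia. The sum over 8 neutrophil markers, of cells which also carry the oxidase, was 0.643 to 2.08 RPKM in HP, 0.276 to 0.925 in ULP and 0.407 to 0.671 in UP libraries, with S100a9 at 0 in all. The sums over the marker lists of astrocytes, neurons and oligodendrocytes did not exceed 1.43 RPKM in any library. The summed level of a list of 5 RNAs that stay in the nucleus moved with the first component. This sum was nearly all Malat1 and Neat1, since Kcnq1ot1, Meg3 and Snhg11 were at most 0.0246 RPKM in any library. The sum was 52.7 and 115.5 RPKM in HP 4 and HP 5 and 38.0 and 34.0 RPKM in ULP 5 and ULP 6. It was 6.55 in HP 6, 5.58 in ULP 4 and 2.51 to 3.65 in the UP libraries. The part of these nuclear RNAs in the results that follow was not tested. In these bulk samples, a change in the number of cells that carry an RNA and a change in the RNA per cell cannot be told apart.

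Levels are given as the deposited RPKM, which divides counts by gene length and library total and so allows genes to be compared with each other. Averaged over the 9 libraries, Cyba had the highest level (886 ± 264 RPKM, SD, n = 9), followed by Arg1 (221 ± 57.3), Rac2 (83.3 ± 12.5), Sod2 (38.0 ± 4.52), Ncf4 (36.6 ± 2.82), Ncf1 (24.7 ± 3.62), Cybb (17.3 ± 7.91) and Nos2 (3.87 ± 1.72). The ranges over the libraries of Sod2 and Ncf4 overlapped, as did those of Ncf1 and Cybb, while every other pair of neighbours in this order was apart. Cyba lay at the 99.7th percentile of the mean levels of all genes tested, and Nos2 at the 39.7th. Nos2 was read by 331 to 943 counts per library, and the other 7 genes by at least 1354.

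**Figure D1:**
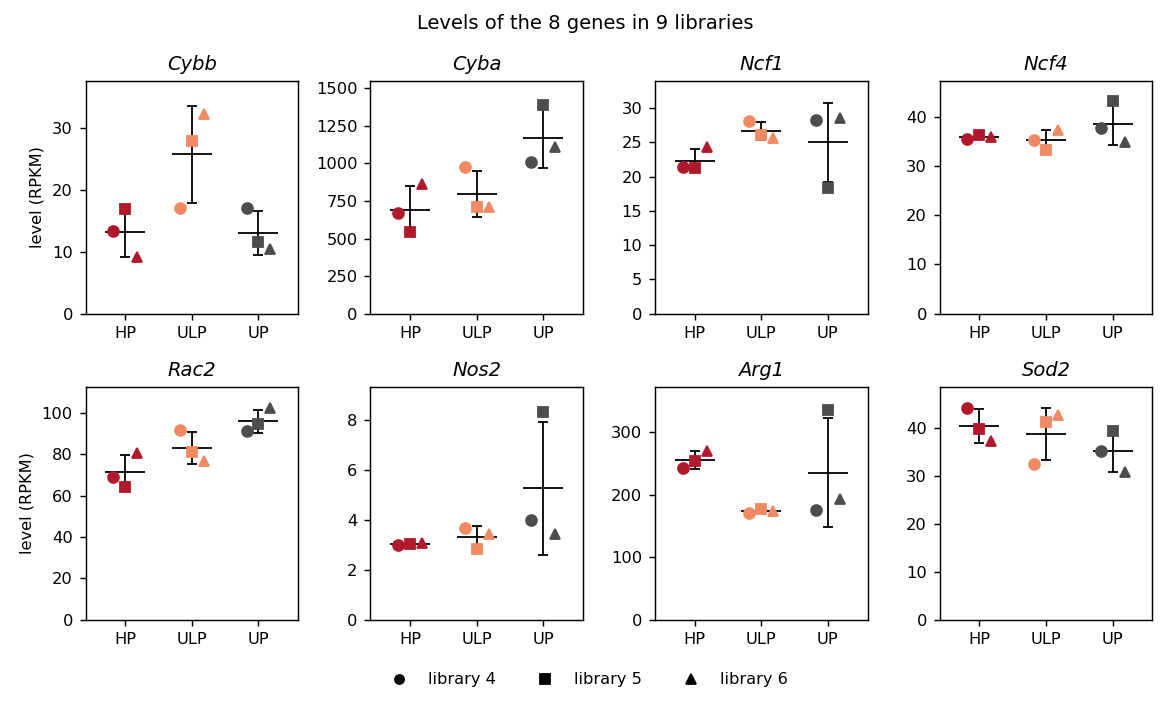
Level in RPKM (vertical axes, linear and from 0) of the 8 genes in HP, ULP and UP libraries, with 1 point per library, a horizontal line at the mean and a bar of 1 SD (n = 3 libraries per state). Cyba and Rac2 lie lower in all HP than in all UP libraries, Cybb is highest in ULP 5 and ULP 6, Arg1 lies higher in all HP than in all ULP libraries, and UP 5 stands apart for Nos2 and Arg1.

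With edgeR's quasi-likelihood test and p-values adjusted by Benjamini-Hochberg (threshold 0.05), 0 of the 8 genes passed for HP against UP, where 0.524% of all genes tested passed (0.0884% higher and 0.435% lower). For ULP against UP, 0 of 8 passed with 0% of all genes, and for HP against ULP 0 of 8 with 0.17% (0.0204% higher and 0.15% lower). Before adjustment, with p under 0.05, 3 of the 8 genes were below the threshold in HP against UP, where 40.9% of all genes were. They were Nos2, Cyba and Rac2, all lower (16.6% of all genes), and 0 were higher (24.3%). In ULP against UP there were 4 of 8, where 27.1% of all genes were below the threshold, with Cybb higher (17.3%) and Nos2, Arg1 and Cyba lower (9.79%). In HP against ULP there was 1, where 3.94% of all genes were, with 0 higher (1.62%) and Cybb lower (2.32%). DESeq2 at an adjusted p under 0.05 called 24.8% of all genes in HP against UP, and of the 8 the same 3 genes, all lower (7.79% of all genes, with 17% higher). In ULP against UP it called Cybb, higher (7.13% of all genes, 7.04% higher and 0.0884% lower), and in HP against ULP 0 of the 8 (0.714%, 0.0748% higher and 0.639% lower). limma on log2(RPKM + 0.1) called 0 of the 8 genes in HP against UP (0.313%), in ULP against UP (0%) and in HP against ULP (0.17%). The comparisons with UP share the UP libraries and are not independent. The median log2 fold change over the 8 genes was −0.25 in HP against UP and −0.25 in ULP against UP, beside 0.01 and −0.01 over all genes tested. The 9 tested marker genes of microglia and macrophages had medians of −0.29 and −0.21. A median below 0 was therefore not particular to the 8 genes.

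**Figure D2:**
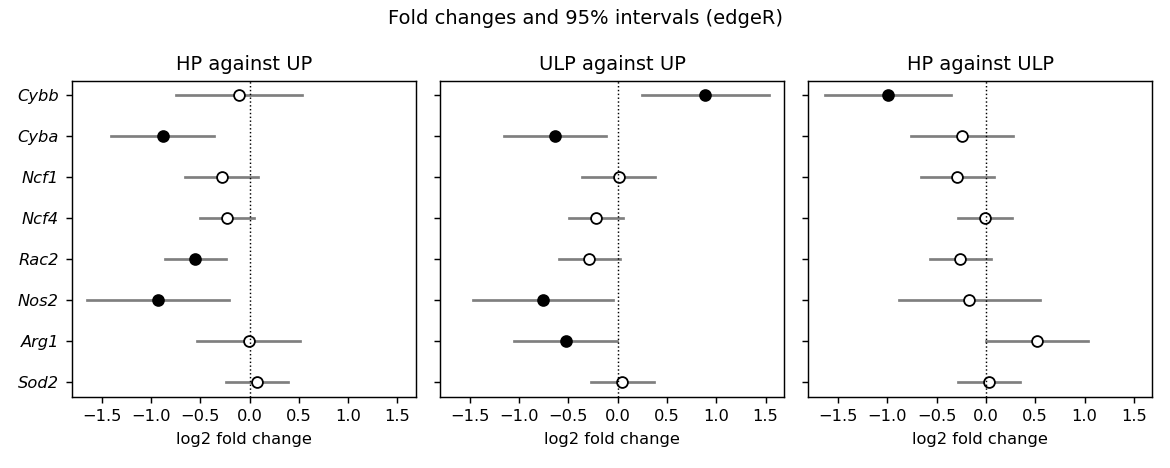
Log2 fold change (horizontal axes) of each gene with its 95% interval from edgeR, for HP against UP, ULP against UP and HP against ULP. Filled points have an unadjusted p under 0.05, and 0 of the 8 genes passed in any comparison after adjustment over all genes tested.

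The membrane core of the oxidase is taken first. Cybb, on chromosome X (RefSeq span chrX:9435252-9487766, GRCm38.p6), encodes the catalytic gp91phox, and Cyba, on chromosome 8 (chr8:122424771-122432940), encodes p22phox, which stabilises it. Their promoters, from 250 bases before to 50 bases after the start of transcription, are shown because the RNAs of these partners had log2 fold changes of opposite sign in ULP against UP. Both are printed along the gene's strand (the minus strand of GRCm38.p6, RefSeq), and capitals mark matches to any of the 8 motifs searched. The Cybb window lies within the RefSeq span of the gene, which extends further upstream.
Cybb (chrX:9469275-9469574): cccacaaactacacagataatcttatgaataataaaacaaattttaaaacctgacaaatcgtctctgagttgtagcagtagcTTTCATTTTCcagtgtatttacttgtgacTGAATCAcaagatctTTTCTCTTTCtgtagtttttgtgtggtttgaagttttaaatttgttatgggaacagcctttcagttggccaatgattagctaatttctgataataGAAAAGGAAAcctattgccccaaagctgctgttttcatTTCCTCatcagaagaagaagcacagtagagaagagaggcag
Cyba (chr8:122432891-122433190): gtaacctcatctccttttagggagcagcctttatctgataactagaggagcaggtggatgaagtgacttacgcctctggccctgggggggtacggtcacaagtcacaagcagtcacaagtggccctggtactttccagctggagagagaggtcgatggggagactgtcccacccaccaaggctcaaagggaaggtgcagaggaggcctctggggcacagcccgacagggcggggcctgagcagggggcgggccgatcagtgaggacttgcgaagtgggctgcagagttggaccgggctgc
The motifs were searched on both strands in all 32851 promoters of the same length. They were the NF-kB consensus by name (held by 8.46% of promoters), the gamma-interferon activated sequence TTCNNNGAA (8.30%), the interferon response core GAAANNGAAA (3.44%), the PU.1 core GAGGAA (28.3%), AP-1 as TGANTCA (7.81%), C/EBP as TTGCNNAA (10.8%), the hypoxia response element ACGTG (19.6%) and the TATA box TATAAA (13.6%). The Cybb window held the interferon response core 3 times (first bases at −168, −124 and −29 from the start), AP-1 once (−139 to −133) and the PU.1 core once (10 to 15 bases after the start), with no overlap between them. The Cyba window held none of the 8. The windows also differed in composition, since Cybb had 35.3% G and C (percentile 3.98 of all promoters) and Cyba 60.7% (percentile 73.1), with a median of 52.7% over all. Of the other genes, the table held Ncf1, with the gamma-interferon activated sequence (−88 to −80) overlapping an interferon response core (−82 to −73), and Sod2, with NF-kB (−83 to −74), the gamma-interferon activated sequence (−185 to −177) and the PU.1 core (−203 to −198). A match describes the letters of the window, not a site or a cause, and the lack of one says only that these letters are not in it.

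Cybb had 13.4, 17.0 and 9.12 RPKM in HP 4, HP 5 and HP 6, and 17.1, 28.02 and 32.3 RPKM in ULP 4, ULP 5 and ULP 6, against 17.1, 11.6 and 10.5 RPKM in UP 4, UP 5 and UP 6. The libraries ULP 5 and ULP 6 were thus the highest of the 9, whereas ULP 4 was close to UP 4 and HP and UP libraries overlapped. For ULP against UP the log2 fold change was 0.89 ± 0.28 (SE, edgeR, adjusted p = 0.169), a fold of 1.85, and DESeq2 gave an adjusted p of 0.0428. Without ULP 4, edgeR gave 1.09 with an adjusted p of 0.0363, where 19.2% of all genes tested passed. In RPKM the ULP and UP libraries overlapped, by ULP 4 against UP 4, while in CPM scaled by TMM, edgeR's library scaling, ULP 4 at 102.3 CPM was just above UP 4 at 101.7 CPM. In HP against UP the log2 fold change was −0.10 ± 0.28 (edgeR, adjusted p = 0.792) and turned to 0.11 without HP 6. In HP against ULP, all HP libraries were at or below 17.0142 RPKM and all ULP libraries at or above 17.0502 RPKM, with a log2 fold change of −0.99 ± 0.28 (edgeR, adjusted p = 0.539, DESeq2, adjusted p = 0.0982) that kept its sign when any library was left out (−1.22 to −0.80). By RPKM, 4.1% of all genes tested had all HP libraries below all ULP libraries.

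Cyba had 669.8, 544 and 863 RPKM in HP 4, HP 5 and HP 6, and 973, 707 and 707 RPKM in ULP 4, ULP 5 and ULP 6, against 1008, 1391 and 1109 RPKM in UP 4, UP 5 and UP 6. Every HP and every ULP library was below every UP library, and the highest in each primed state were HP 6 and ULP 4. The log2 fold change was −0.88 ± 0.23 in HP against UP, a fold of 0.543, with an adjusted p of 0.0606 by edgeR and of 0.00592 by DESeq2. For ULP against UP it was −0.64 ± 0.23 (edgeR, adjusted p = 0.169). Without ULP 4, both comparisons passed edgeR's test (adjusted p = 0.0226 for HP and 0.0417 for ULP against UP). In that fit, 25.9% and 19.2% of all genes tested passed. Without HP 6 the HP comparison passed at −1.06 (adjusted p = 0.0134), where 38.3% of all genes passed. Without ULP 4 and HP 6 the values were −1.06 (adjusted p = 0.00151) and −0.82 (adjusted p = 0.0075), where 48.5% and 38.2% passed. Over the 9 libraries, log2 CPM of Cyba had a correlation of −0.92 with the first component, which is a description over libraries that share that component, and 26.6% of all genes tested had a larger absolute value. Without UP 5, the values were −0.72 in HP against UP (edgeR, adjusted p = 0.117) and −0.47 in ULP against UP (adjusted p = 0.271). HP and ULP libraries overlapped (log2 fold change −0.24 ± 0.23, edgeR, adjusted p = 1.00), and this value was −0.03 without ULP 4 and −0.44 without HP 6.

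The ratio of Cyba to Cybb within a library does not depend on how libraries are scaled. It does set a short gene against a long one (0.758 and 5.808 kb in the RPKM), so differences between libraries by gene length need not cancel in it. It was 49.97, 31.9 and 94.7 in HP 4, HP 5 and HP 6, and 57.1, 25.2 and 21.9 in ULP 4, ULP 5 and ULP 6, against 58.9, 119.7 and 106.0 in UP 4, UP 5 and UP 6. All ULP libraries were below all UP libraries, although ULP 4 and UP 4 differed by little, and HP libraries overlapped with both. The ratio of Ncf4 to Cybb was likewise lower in all ULP (1.16 to 2.07) than in all UP libraries (2.20 to 3.72), and in HP (2.13 to 3.94) it was higher than in all ULP libraries. That of Ncf1 to Cybb overlapped between all states.

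Among the cytosolic subunits, Rac2 (chr15:78559169-78572783), the GTPase of blood cells that switches the oxidase on, had 68.8, 64.2 and 80.5 RPKM in HP 4, HP 5 and HP 6, and 91.7, 80.8 and 76.5 RPKM in ULP 4, ULP 5 and ULP 6, against 90.9, 94.6 and 102 RPKM in UP 4, UP 5 and UP 6. Every HP library was below every UP library, whereas ULP 4 was within the UP range. In HP against UP the log2 fold change was −0.55 ± 0.14, a fold of 0.682 (edgeR, adjusted p = 0.0606), and DESeq2 gave an adjusted p of 0.00775. It was −0.64 without HP 6 (edgeR, adjusted p = 0.0144) and −0.56 without ULP 4 (adjusted p = 0.0225), where 38.3% and 25.9% of all genes passed. For ULP against UP it was −0.29 ± 0.14 (adjusted p = 0.197). Without ULP 4 alone it was −0.41 and did not pass (adjusted p = 0.066). Without both ULP 4 and HP 6 it was −0.37 and passed (adjusted p = 0.0339), where 38.2% of all genes passed. Between HP and ULP the libraries overlapped (−0.26 ± 0.14, adjusted p = 1.00), with −0.15 without ULP 4 and −0.37 without HP 6. Rac2 had a correlation of −0.94 with the first component, and 22.2% of genes had a larger absolute value. The ratio of Rac2 to its ubiquitous homologue Rac1 was 0.988, 0.943 and 1.05 in HP 4, HP 5 and HP 6, below 1.14, 1.11 and 1.29 in UP 4, UP 5 and UP 6, with ULP libraries (1.02 to 1.15) between and overlapping both. No stretch of 51 bases, the length of a read, was shared between the main transcript of Rac2 and those of Rac1 or Rac3 (GENCODE).

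Ncf1 (chr5:134220053-134229628) encodes p47phox, the organiser that carries the cytosolic subunits to the membrane after phosphorylation. It had 21.5, 21.3 and 24.3 RPKM in HP 4, HP 5 and HP 6, and 28.2, 26.0 and 25.7 RPKM in ULP 4, ULP 5 and ULP 6, against 28.3, 18.4 and 28.5 RPKM in UP 4, UP 5 and UP 6. All HP libraries were below all ULP libraries, and UP 5 was the lowest of the 9. The log2 fold change was −0.29 ± 0.16 in HP against ULP (edgeR, adjusted p = 1.00), −0.28 ± 0.16 in HP against UP (adjusted p = 0.216) and 0.01 ± 0.16 in ULP against UP (adjusted p = 0.971). Without UP 5, the last 2 were −0.45 and −0.16. Of the 51-base stretches of its main transcript, 10.0% also occurred in transcripts of other genes, so that part of its reads could have been counted elsewhere or left out. This share was 16.5% for Arg1, 8.66% for Sod2, 5.39% for Cybb, 1.51% for Rac2, 1.18% for Nos2 and 0% for Cyba and Ncf4.

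Ncf4 (chr15:78244164-78262582) encodes p40phox, which binds phosphoinositides on phagosomes. Its SD over the 9 libraries was the smallest of the 8 genes relative to the mean, with 35.5, 36.3 and 35.9 RPKM in HP 4, HP 5 and HP 6, and 35.3, 33.2 and 37.3 RPKM in ULP 4, ULP 5 and ULP 6, against 37.6, 43.2 and 34.9 RPKM in UP 4, UP 5 and UP 6. The RPKM of all states overlapped. The log2 fold change was −0.23 ± 0.12 in HP against UP (95% interval −0.50 to 0.05, edgeR, adjusted p = 0.18), −0.22 ± 0.12 in ULP against UP (−0.49 to 0.06, adjusted p = 0.25) and −0.01 ± 0.12 in HP against ULP (−0.29 to 0.26, adjusted p = 1.00). Without UP 5, the highest library, the comparisons with UP gave −0.12 for HP and −0.11 for ULP. With the TMM scaling all HP and all ULP libraries were below all UP libraries, the closest being HP 5 at 70.4 and ULP 4 at 73.7 CPM against UP 6 at 73.8 CPM.

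Nos2 (chr11:78920787-78960226) had 2.98, 3.02 and 3.08 RPKM in HP 4, HP 5 and HP 6, and 3.68, 2.82 and 3.44 RPKM in ULP 4, ULP 5 and ULP 6, against 4.00, 8.33 and 3.43 RPKM in UP 4, UP 5 and UP 6. The 3 HP libraries lay close together and below all UP libraries, and UP 5 was far above the others. The log2 fold change was −0.93 ± 0.32 in HP against UP, a fold of 0.525, with an adjusted p of 0.0721 by edgeR and of 0.0295 by DESeq2, and it was −0.40 without UP 5. In ULP against UP it was −0.76 ± 0.32 (edgeR, adjusted p = 0.177), and −0.23 without UP 5. By RPKM, ULP 4 and, by very little, ULP 6 lay above UP 6, so that these groups overlapped. In CPM scaled by TMM, ULP 4 (16.8) was still above UP 6 (15.8), while ULP 6 (14.6) was below it. In HP against ULP it was −0.17 ± 0.32 (95% interval −0.88 to 0.54, adjusted p = 1.00) and −0.05 without ULP 4, and ULP 5 was the lowest of the 9 libraries.

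Arg1 (chr10:24915207-24927470) had 241.8, 253 and 270.1 RPKM in HP 4, HP 5 and HP 6, and 171, 176 and 174 RPKM in ULP 4, ULP 5 and ULP 6, against 176, 335 and 194 RPKM in UP 4, UP 5 and UP 6. All HP libraries were above all ULP libraries, HP 6 included, and UP 5 was the highest of the 9. The log2 fold change was 0.52 ± 0.23 in HP against ULP, a fold of 1.43 (edgeR, adjusted p = 1.00), and between 0.46 and 0.55 when any library was left out. By RPKM, 6.09% of all genes tested had all HP libraries above all ULP libraries. In HP against UP it was −0.01 ± 0.23 (adjusted p = 0.977) and turned to 0.36 without UP 5 (adjusted p = 0.117), and in ULP against UP it was −0.53 ± 0.23 (adjusted p = 0.183), and −0.16 without UP 5. Of the 51-base stretches of its main transcript, 16.5% also occurred in the transcript of Gm36172, a predicted gene, and these sources do not say if reads were counted by strand.

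Within each library, the ratio of Arg1 to Nos2 was 81.2, 83.8 and 87.8 in HP 4, HP 5 and HP 6, and 46.5, 62.6 and 50.6 in ULP 4, ULP 5 and ULP 6, against 43.8, 40.1 and 56.4 in UP 4, UP 5 and UP 6. All HP libraries, HP 6 included, were therefore above the other 6. UP 5, which had high levels of both genes, had the lowest ratio. The means were 84.3 ± 3.30 in HP, 53.2 ± 8.38 in ULP and 46.8 ± 8.52 in UP libraries (SD, n = 3 each), and ULP and UP libraries overlapped. The ratio was not tested, and the share of other gene pairs that separate in this way is not given here. By RPKM, Nos2 alone was already below in HP against UP, as were 11.4% of all genes tested. Arg1 alone was already above in HP against ULP, as were 6.09%.

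**Figure D3:**
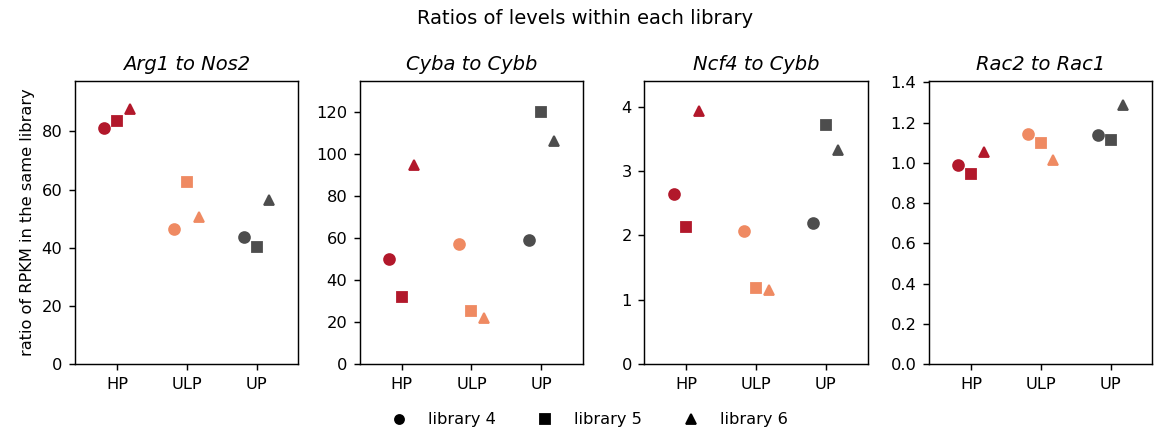
Ratio of RPKM within the same library (vertical axes, linear and from 0), with 1 point per library, for Arg1 to Nos2, Cyba to Cybb, Ncf4 to Cybb and Rac2 to Rac1 in HP, ULP and UP libraries. Arg1 to Nos2 lies between 81.2 and 87.8 in HP and does not exceed 62.6 in the other libraries, while Cyba to Cybb is lower in all ULP than in all UP libraries.

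Sod2 (chr17:13007839-13018119) had 44.1, 39.7 and 37.1 RPKM in HP 4, HP 5 and HP 6, and 32.4, 41.1 and 42.5 RPKM in ULP 4, ULP 5 and ULP 6, against 35.1, 39.4 and 30.9 RPKM in UP 4, UP 5 and UP 6. All 3 states overlapped, with log2 fold changes of 0.07 ± 0.14 in HP against UP (95% interval −0.24 to 0.39), 0.05 ± 0.14 in ULP against UP (−0.27 to 0.36) and 0.03 ± 0.14 in HP against ULP (−0.29 to 0.34). The adjusted p by edgeR was 0.699 for HP against UP, 0.832 for ULP against UP and 1.00 for HP against ULP. Without UP 5, the comparisons with UP gave 0.18 for HP and 0.16 for ULP, and HP against ULP turned to −0.06 without ULP 4.

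By RPKM, the libraries did not overlap for 3 of the 8 genes in HP against UP, all of them below (Nos2, Cyba and Rac2, 11.4% of all genes tested) and 0 above (30.1%). For ULP against UP there was 1 below, Cyba (11.5%), and 0 above (16.2%), and in HP against ULP there were 2 below (Cybb and Ncf1, 4.1%) and 1 above (Arg1, 6.09%). By CPM with the TMM scaling, Ncf4 was added below in HP against UP (20.9%, with 0 above and 21.9%). In ULP against UP, Arg1 and Ncf4 were then added below (13.5%) and Cybb above (14.8%), and in HP against ULP the same 3 genes were apart (4.48% above and 5.16% below).

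Without ULP 4 and HP 6, which lay on the UP side of the first component, edgeR called 2 of the 8 genes in HP against UP, Cyba and Rac2, both lower, where 48.5% of all genes were called. It called 3 in ULP against UP, Cybb higher and Cyba and Rac2 lower, where 38.2% were called, and 0 in HP against ULP (0.0536%). Nos2 was not among them. Without HP 6 alone, the same 2 genes were called in HP against UP, where 38.3% of all genes were, and with no filter on low counts they were called where 8.55% of all genes were.

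**Figure D4:**
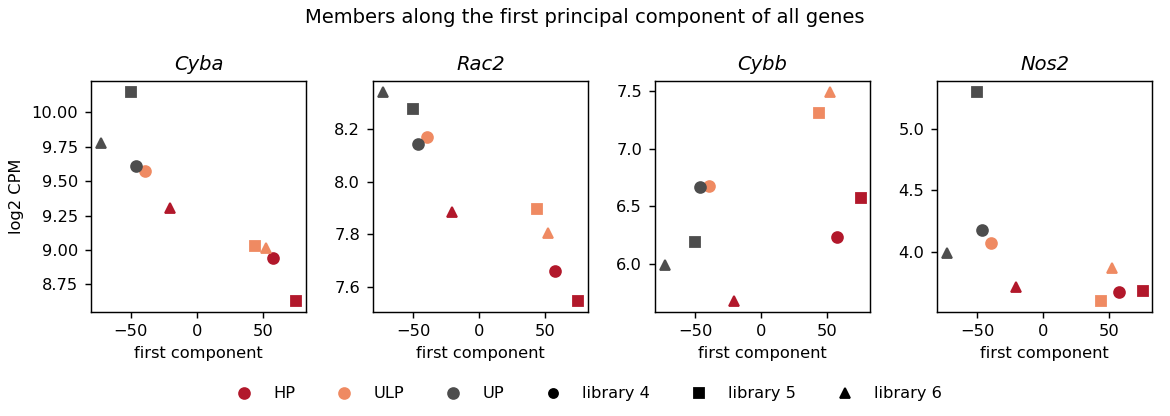
Log2 CPM (vertical axes) of Cyba, Rac2, Cybb and Nos2 against the position of each of the 9 libraries on the first principal component of all genes tested (horizontal axes, arbitrary units). Cyba and Rac2 decrease along the component, on which HP 6 (−20.4) and ULP 4 (−39.2) lie apart from the other primed libraries, while Cybb is highest in ULP 5 and ULP 6 and Nos2 in UP 5.

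The genes varied together in part. Over the 9 libraries, the log2 CPM of Cyba and Rac2 had a correlation of 0.95 (0.97 without UP 5), and that of Nos2 and Ncf4 one of 0.98 (0.93 without UP 5). Nos2 and Arg1 had 0.59, which turned to −0.47 without UP 5, and Nos2 and Ncf1 had −0.19, which turned to 0.80. Cybb had no absolute correlation above 0.67 with any of the others (−0.79 with Arg1 without UP 5). These values describe 9 libraries that share groups and components and were not tested. Among 9285 genes with a mean of at least 5 CPM, the 2 most like each gene over the 9 libraries were Sc5d (0.98) and Nampt (0.97) for Cybb, Cope (1.00) and Atp5g2 (1.00) for Cyba, Mvd and Pld4 (0.99 each) for Rac2, Pik3ap1 and Prex1 (0.99 each) for Ncf1 and Nos2 (0.98) and Selenbp1 (0.97) for Ncf4. They were Spcs1 and Rpl38 (0.99 each) for Nos2, Slc25a26 (0.96) and Ang (0.93) for Arg1, and Ak6 (0.99) and Klc1 (0.98) for Sod2. Without UP 5 these values were 0.94 for Spcs1, 0.90 for Rpl38, 0.89 for Slc25a26, 0.84 for Ang and 0.86 for Selenbp1.

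The other genes of these pathways were read from 4 lists. Of 18 further genes of the NADPH oxidase family, its assembly and activation, 9 were tested, and the homologues Nox3, Nox4 and Duox1 were at 0 in every library, while Nox1 and Duox2 did not exceed 0.0114 RPKM. Of 20 genes of nitric oxide synthesis 19 were tested, of 14 genes of arginine breakdown and polyamines 13, and of 17 genes that remove superoxide and hydrogen peroxide 15. By edgeR, 0 passed at an adjusted p under 0.05 in any list and comparison. DESeq2 called 14 in HP against UP (6 higher and 8 lower), where it called 24.8% of all genes (17% higher and 7.79% lower). It called 3 in ULP against UP (all higher), where it called 7.13% of all genes, and 0 in HP against ULP (0.714%). The medians of the log2 fold changes in HP against UP were −0.28 for the oxidase, −0.25 for nitric oxide, −0.28 for arginine and polyamines and −0.31 for the removal list, beside 0.01 over all genes, and in ULP against UP they were −0.16, −0.15, −0.18 and −0.33, beside −0.01. The 9 tested markers of microglia and macrophages had −0.29 in HP against UP and −0.21 in ULP against UP. Medians below 0 were therefore not particular to these 4 lists. For HP against ULP the medians of the 4 lists were −0.13, −0.02, −0.04 and 0.04, beside 0.02. Without ULP 4 and HP 6, edgeR called 37 of these genes in HP against UP (9 higher and 28 lower), where 48.5% of all genes were called (4191 higher and 3052 lower). In the same fit it called 26 in ULP against UP (6 higher and 20 lower), where 38.2% of all genes were called (3517 higher and 2185 lower).

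Among the oxidase genes, Rap1a, a small GTPase found with the membrane core in human neutrophils, had 43.0, 50.9 and 12.1 RPKM in HP 4, HP 5 and HP 6, and 10.6, 35.7 and 41.8 RPKM in ULP 4, ULP 5 and ULP 6, against 8.19, 9.48 and 5.70 RPKM in UP 4, UP 5 and UP 6. The 4 libraries with high nuclear RNA were thus the highest, with HP 6 and ULP 4 nearer to UP, and the log2 fold changes were 2.06 in HP against UP (edgeR, adjusted p = 0.0606) and 1.81 in ULP against UP (adjusted p = 0.169). P4hb, a protein disulfide isomerase, had −0.47 in ULP against UP (adjusted p = 0.175). In HP against ULP the smallest p-values belonged to the kinase gene Prkcd (−0.16) and the exchange factor gene Vav1 (−0.13), both with an adjusted p of 1.00.

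Among the genes around nitric oxide synthase, Gch1, the rate-limiting enzyme for its cofactor tetrahydrobiopterin, had 11.9, 9.05 and 13.8 RPKM in HP 4, HP 5 and HP 6, against 19.2, 19.0 and 17.4 RPKM in UP 4, UP 5 and UP 6. No library overlapped, and the log2 fold change in HP against UP was −0.80 (edgeR, adjusted p = 0.0606, DESeq2, adjusted p = 0.00148). Spsb4, which encodes an adaptor that marks the synthase for degradation, had −0.70 in HP against UP (edgeR, adjusted p = 0.0606) and −0.54 in HP against ULP (adjusted p = 0.347), where its homologue Spsb1 had 0.94 (adjusted p = 0.989) at levels that did not exceed 0.224 RPKM in any library. Cul5, a scaffold of the ligase that these adaptors join, had 1.58 and Ddah2, which breaks down an inhibitor of nitric oxide synthases, had 1.28 in ULP against UP (adjusted p = 0.169 each), Ddah2 at levels that did not exceed 0.892 RPKM in any library. Cul5 had 1.77, 6.05 and 6.48 RPKM in ULP 4, ULP 5 and ULP 6, against 1.84, 1.60 and 0.991 RPKM in UP 4, UP 5 and UP 6, so that ULP 4 lay within the UP range and ULP 5 and ULP 6, with their high nuclear RNA, lay above it. Ddah2 had 0.336 RPKM in ULP 4, nearer to UP (0.203 to 0.245) than to ULP 5 and ULP 6 (0.707 and 0.701).

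Downstream of arginase, Azin1, an inhibitor of the antizymes that restrain polyamine synthesis, had log2 fold changes of 0.89 in HP against UP (edgeR, adjusted p = 0.0606) and 0.81 in ULP against UP (adjusted p = 0.169), with 34.1 RPKM in ULP 4 and 55.2 and 57.9 RPKM in ULP 5 and ULP 6, against 23.3 to 30.7 RPKM in UP libraries. Pycr1, an enzyme of proline synthesis, had −0.72 in HP against UP (adjusted p = 0.0622) and −0.54 in HP against ULP (adjusted p = 1.00). Of the genes of polyamine synthases, Srm had −0.45 in ULP against UP (adjusted p = 0.176), and Sms had 0.22 in HP against ULP (adjusted p = 1.00). Among the genes that remove peroxide, Prdx5, a peroxiredoxin, had −0.74 in HP against UP (adjusted p = 0.0616) and Prdx2 had −0.58 in ULP against UP (adjusted p = 0.169). Cat, the catalase, had 0.48 in HP against UP (adjusted p = 0.0632) and 0.43 in ULP against UP (adjusted p = 0.169), where ULP 4 (56.6 RPKM) lay below UP 4 (58.0 RPKM). For HP against ULP the smallest p-values belonged to Glrx (0.19) and Txnrd1 (−0.19), both with an adjusted p of 1.00.

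**Figure D5:**
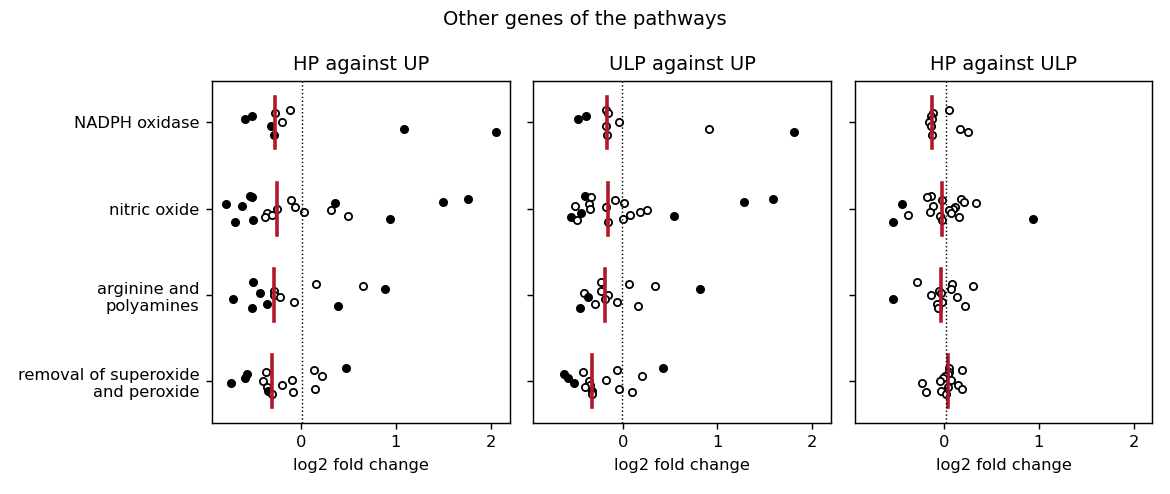
Log2 fold change (horizontal axes) of the tested genes of the 4 lists, with 1 point per gene, for HP against UP, ULP against UP and HP against ULP. Filled points have an unadjusted p under 0.05, red bars are the medians of the lists, from −0.33 to 0.04, and the dotted line is the median of all genes tested.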

How the data were processed

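BV-2 libraries (TruSeq stranded mRNA) were grouped by the titles. The authors converted base calls with bcl2fastq 1.8.4, aligned with TopHat2 2.1.0 and counted with featureCounts 1.5.0, per the labels. The authors deposited raw counts per gene, RPM values scaled by library total and RPKM values scaled by library total and gene length. The RPM values were used here to obtain gene lengths, as RPM divided by RPKM. The build is GRCm38 in the submitters' notes and another in the supplement, and the strand setting of the counting is unstated in the sources used. Only GRCm38.p6 coordinates from RefSeq are printed.

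Genes were filtered by filterByExpr, scaled by TMM and fitted over all 9 libraries with edgeR 4.0.16 (R 4.3.3), and called at an adjusted p under 0.05. CPM values are counts scaled by TMM and library total, with a prior count of 2 on the log2 scale. Alternatives were a replicate block, a gene length offset (loess, span 0.3), RLE, DESeq2 1.42.0, limma 3.58.1 on log2(RPKM + 0.1) and log2(RPKM + 1), no filter, 6 libraries and libraries left out. On simulated data, the test recovered 47% (ULP against UP) and 48% (HP against UP) of genes given a log2 change of 1. It recovered 97% of those given a change of 2 in both comparisons. In the data themselves, the 3 tested nuclear RNAs had log2 fold changes of 2.24 to 2.99 in ULP against UP, and 0 passed. In HP against UP they had 3.14 to 4.07, and 0 passed. The simulated recovery therefore does not hold for genes that vary between libraries of a state as these do. A gene that did not pass is therefore not shown to be unchanged. The members and lists were chosen with earlier results of these data known. Named genes were the members, per list and comparison up to 6 genes called or else the 2 with the smallest p, the 2 most correlated with each member (mean of at least 5 CPM, predicted Gm and Rik genes left out), and the marker lists as sums. Single markers, Rac1, Gm36172 and the Nox and Duox homologues were named after their values were seen. A gene that this rule names is not reported here.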

Additional observations from a re-analysis of the deposited data

How the results depend on the processing

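In HP against UP, where 0 members were called, DESeq2 called 3 (Nos2, Cyba and Rac2), and 2 (Cyba and Rac2) were called with no filter on low counts (8.55% of all genes), with only the 6 libraries compared (10.6%) and without ULP 4 and HP 6. Leaving out 1 library gave 0 to 2, with 2 without HP 6 (38.3%) and without ULP 4 (25.9%). In ULP against UP, DESeq2 called 1 and the fit without ULP 4 and HP 6 called 3, and leaving out 1 library gave 0 to 2, with 2 (Cybb and Cyba) without ULP 4 (19.2%). HP against ULP gave 0 in each alternative. For the other pathway genes, the settings were added after seeing the data. HP against UP gave 14 with DESeq2 (24.8% of all genes) and 6 with no filter (8.55%). It gave 5 with only the 6 libraries compared (10.6%) and 37 without ULP 4 and HP 6 (48.5%). Leaving out 1 library gave 0 to 26, with 26 without HP 6 (38.3%). ULP against UP gave 3 with DESeq2 (7.13%) and 26 without ULP 4 and HP 6 (38.2%). There, leaving out 1 library gave 0 to 12, with 12 without ULP 4 (19.2%).

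With the replicate block 0 members were called, with or without the length offset. Correlations between the deviations of same-numbered libraries had both signs, from −0.84 (HP 6 with ULP 6) to 0.68 (HP 5 with ULP 5) over genes tested. The differently numbered HP 6 and ULP 4 reached 0.90. With 3 libraries per state, this check cannot decide whether the numbers mark pairs. They were not taken as pairs in the main fit. The gene length offset moved the median of all genes to −0.17 in ULP against UP and −0.19 in HP against UP, against −0.01 and 0.01. With it Sod2 was at −0.12 in HP and −0.13 in ULP against UP (with the block −0.12 and −0.12), which relative to that median stays positive, and Ncf1 at −0.14 in ULP against UP (with the block −0.12). Of 456 values of the members' fold changes, 33 reversed their sign, and the cause was not tested. Arg1 in HP against UP was at 0.0379 with the block, 0.0232 with the block and offset, 0.018 with the 6 libraries compared and 0.18 with limma at either pseudocount, and from −0.20 to 0.36 with 1 library left out. Cybb in HP against UP was at 0.00041 and 0.0014 with limma, 0.11 without ULP 4 and HP 6, and from −0.33 to 0.11 with 1 left out. Ncf4 in HP against ULP was at 0.0257 and 0.025 with limma, 0.0014 without ULP 4 and HP 6, and from −0.0658 to 0.0202 with 1 left out. Ncf1 in ULP against UP was at −0.0036 with no filter, −0.04 without ULP 4 and HP 6, and from −0.16 to 0.11 with 1 left out. Sod2 in HP against ULP was at −0.02 without ULP 4 and HP 6, and from −0.0579 to 0.0802 with 1 left out, and its ranges were −0.0166 to 0.18 in HP and −0.0436 to 0.16 in ULP against UP. With 3 libraries per state and 331 to 943 counts, Nos2 was the gene with the fewest reads behind its values.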
